A study of Mus musculus with 15 samples.

Results

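Cathepsins are the proteases that digest proteins inside the endosomes and lysosomes of a cell. Ctse encodes cathepsin E, an aspartic protease known mainly from stomach, gut, red cell membranes and immune cells, where it works in endosomes. Its close relative Ctsd encodes cathepsin D, the main aspartic protease of lysosomes. Ctsb, Ctsc, Ctsh, Ctsk, Ctsl, Ctss and Ctsz encode cysteine cathepsins, and Ctsa encodes a serine carboxypeptidase that also protects other lysosomal enzymes. The results below follow Ctse and these 9 relatives, 10 of the 22032 gene symbols on the array, through the livers of mice with and without chemically induced hepatocellular carcinoma. The 10 symbols are covered by 12 of 29522 named probes and were taken by the name the array design gives each probe. Ctse was chosen for its pattern over these same livers, so its values are given as a description and no test is reported for it. The relatives were chosen by name.

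Total liver RNA of male CD1 mice, an outbred strain, was measured on single-colour microarrays in 3 groups. Group C (controls) was given saline in place of a carcinogen and a plasmid without insert. Group T (DEN) was given diethylnitrosamine (DEN), a liver carcinogen, with the same empty plasmid, and group G (Gas1) was given DEN with a plasmid that drives HA-tagged Gas1 from the CAG promoter. Gas1 is a membrane-anchored protein that arrests the cell cycle, and the design asks what its delivery does to livers that carry DEN tumors. All mice underwent hydrodynamic gene delivery (HGD), a rapid tail vein injection that reaches only some of the liver cells, so a liver of group G is a mixture of transfected and other cells. By the study's methods DEN was given at 25 µg/g at day 15 after birth, 50 µg of plasmid were delivered weekly from week 28 to week 34, and livers were taken at week 35, whereas the labels give an age of 10 weeks. Of the 15 arrays, 4 held RNA of C livers, 5 of T livers and 6 of G livers. Arrays C3 and C4 carry the same RNA code, as do T4 and T5. Their log2 values differed with an SD of 0.15 and 0.14 over 7848 genes, against at least 0.29 and 0.23 for the other pairs of their groups, and each pair was averaged into 1 mouse. This left 13 mice (3 C, 4 T and 6 G). The arrays lay on 2 slides that each carried all groups. Beyond the RNA codes nothing says how the samples relate to animals, and p-values measure only the spread between these samples, which may in part be technical.

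The number of spots well above background, the measure of signal on such arrays, was between 15707 and 29765 per array. It was between 15707 and 27681 in group C, between 19970 and 22638 in group T and between 18041 and 29765 in group G. The fewest were on arrays C2 (15707), G2 (18041) and C1 (18354), so C mice C1 and C2 rest on arrays of low signal. The raw signal of Ctsb was 2404 on C1, 2118 on C2 and 3384 on G2, against 7115 on C3, 6024 on C4 and 5739 to 8141 in group T. Comparisons with group C lean on the normalization of C1 and C2. All 12 hepatocyte markers were well above background on all 15 arrays, whereas 6 of the 10 stomach markers were so on no array. The log2 signal of Gas1 itself was 6.53 ± 0.20 (SD, n = 3) in C and 6.54 ± 0.09 (SD, n = 4) in T. In G it was 6.61 ± 0.11 (SD, n = 6), so these arrays showed no clear rise of Gas1 in group G. Whether its probe reads the RNA made from the plasmid was not tested. A probe reads the RNA of the whole piece of liver, so fewer cells of a type and less RNA per cell cannot be told apart.

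Ctse is read by a single probe of 60 bases with 1 spot per array. The probe lies at chr1:133571990-133572049 (mm9, + strand), near the 3′ end of the transcript. Its first 30 bases are shown because every Ctse value below rests on this spot, together with the PCR primers the study lists for the same transcript. By quantitative PCR the study reported a fall of Ctse to negligible levels after DEN, reversed by Gas1 delivery.
Ctse probe, first 30 bases: gacctgtttttacagttggtttatttgtat
Ctse forward primer: aggagtgaccccagtgtttg
Ctse reverse primer: catagcctccgaaagtcagc

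Ctse was well above background in every liver of groups C and G and in none of group T. The raw mean signal of its spot was 128, 166, 295 and 218 on arrays C1 to C4, and 145, 128, 291, 164, 266 and 208 on arrays G1 to G6. On arrays T1 to T5 it was 37, 37, 41.3, 43.2 and 41.1, over a median local background of 27 or 28. The T spots were thus dim before any normalization, and the raw signals of groups C and G covered much the same span. By the scanner's flag the spot was well above background on 4 of 4 arrays in C, 0 of 5 in T and 6 of 6 in G. Of the 22032 genes on the array, Ctse was the only 1 with this pattern of flags, that is, on every array of C and G and on no array of T. The opposite pattern, on every array of T and on none of C or G, was met by 3 genes. These flags belong to the pattern for which Ctse was chosen and are counts, not a test.

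**Figure D1:**
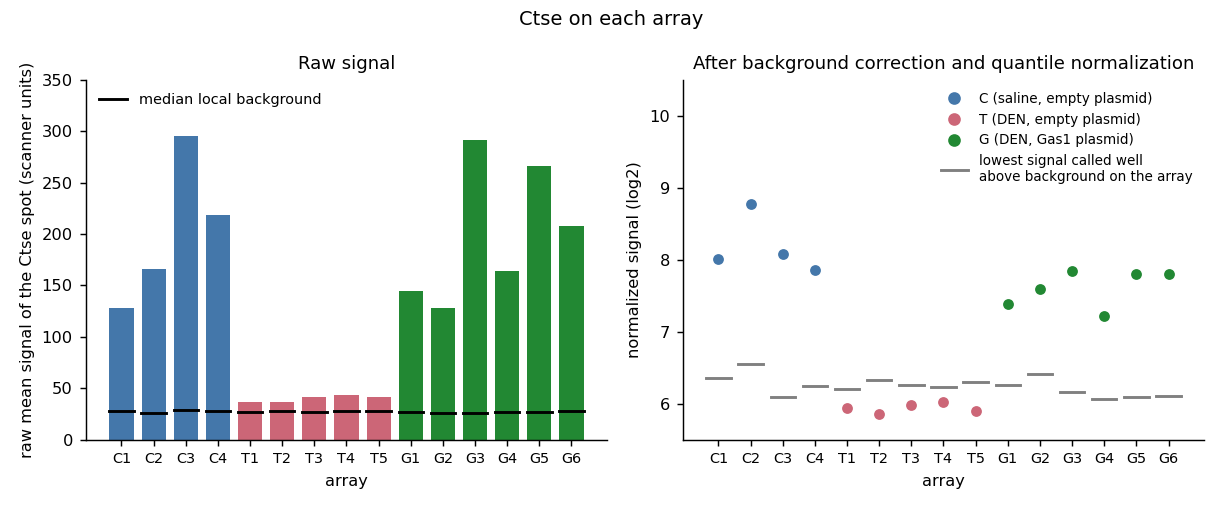
Ctse on each of the 15 arrays. Left, bars give the raw mean signal of the spot and black lines its median local background, in scanner units. Right, points give the log2 signal after background correction and quantile normalization, and grey lines the lowest signal called well above background on that array. The 5 arrays of group T (red) lie below their grey lines, whereas the 4 of group C (blue) and the 6 of group G (green) lie above them.

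After normalization, Ctse measured 8.003 in mouse C1, 8.78 in C2 and 7.97 in C3-4, the mean of arrays C3 and C4, on the log2 scale. In group T it measured 5.94, 5.86, 5.98 and 5.96, close to the floor set by the background correction. In group G it measured 7.39, 7.59, 7.85, 7.21, 7.79 and 7.80. The 3 groups did not overlap, with T lowest, G between and C highest, although the highest G mouse (7.85) lay only just under the lowest C mouse (7.97). The means were 8.25 ± 0.46 (SD, n = 3) in C, 5.94 ± 0.05 (SD, n = 4) in T and 7.60 ± 0.26 (SD, n = 6) in G. Because the spot was not well above background on any T array, the T level is only a limit. The fold is therefore given against the lowest signal called well above background on the T arrays, or the spot's own signal where that was higher. With this normalization, Ctse was at least 3.96-fold higher in C than in T and at least 2.53-fold higher in G than in T. Other scalings give other bounds, as median scaling gave a measured T minus C of -1.70 in place of -2.32 (log2).

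The measured mean differences of Ctse were -2.32 for T minus C, 1.67 for G minus T and -0.65 for G minus C on the log2 scale. The first pair depends on how values near the background are treated, since with a normexp offset of 16 in place of 50 they became -3.30 and 2.55, with the direction kept. Both held their direction on each of the 2 slides, where T minus C was -2.49 and -1.99 and G minus T was 1.68 and 1.65. C exceeded G by 1.57-fold in the means, and G minus C was -0.81 and -0.34 within the slides. That last difference was not stable, since scaling each array to its median gave a G minus C of 0.03, and leaving out C2 gave -0.38. Normalization by cyclic loess also gave -0.38, and the processed signal scaled to the 75th percentile gave -0.87. Median scaling rests on dim spots, as the median raw signal ran from 39.2 (C2) to 57.4 (G4) over the arrays. The order of G and C was thus turned by median scaling but kept by the other scalings.

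The relatives differed far less between groups than Ctse. Between T and C, 6 of the 9 had a higher mean in T and 3 a lower mean (Ctsd, Ctsh and Ctsl, whose signs turn when arrays are scaled to their medians), and the median difference was 0.16 against 0.01 over all genes. In limma with Benjamini-Hochberg adjustment over all genes, 1 of the 9 passed, Ctsz, where 2.38% of all genes did. At an unadjusted p under 0.05 there were 4, against 20.3% of all genes. The mice of the groups did not overlap for 3 relatives (Ctsk, Ctsl and Ctsz), against 19.1% of all genes. Between G and T none of the 9 passed (0.127% of all genes did), 1 had an unadjusted p under 0.05 (10.9% of all genes), and for none were the groups apart (3.13% of all genes). Between G and C none passed (0.427% of all genes), 1 had an unadjusted p under 0.05 (13.2%) and 1, Ctsl, did not overlap (5.86%). By the methods' t-test with the same adjustment, 0 of the 9 passed in any comparison, and 2, 1 and 0 had an unadjusted p under 0.05 in the same order.

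**Figure D2:**
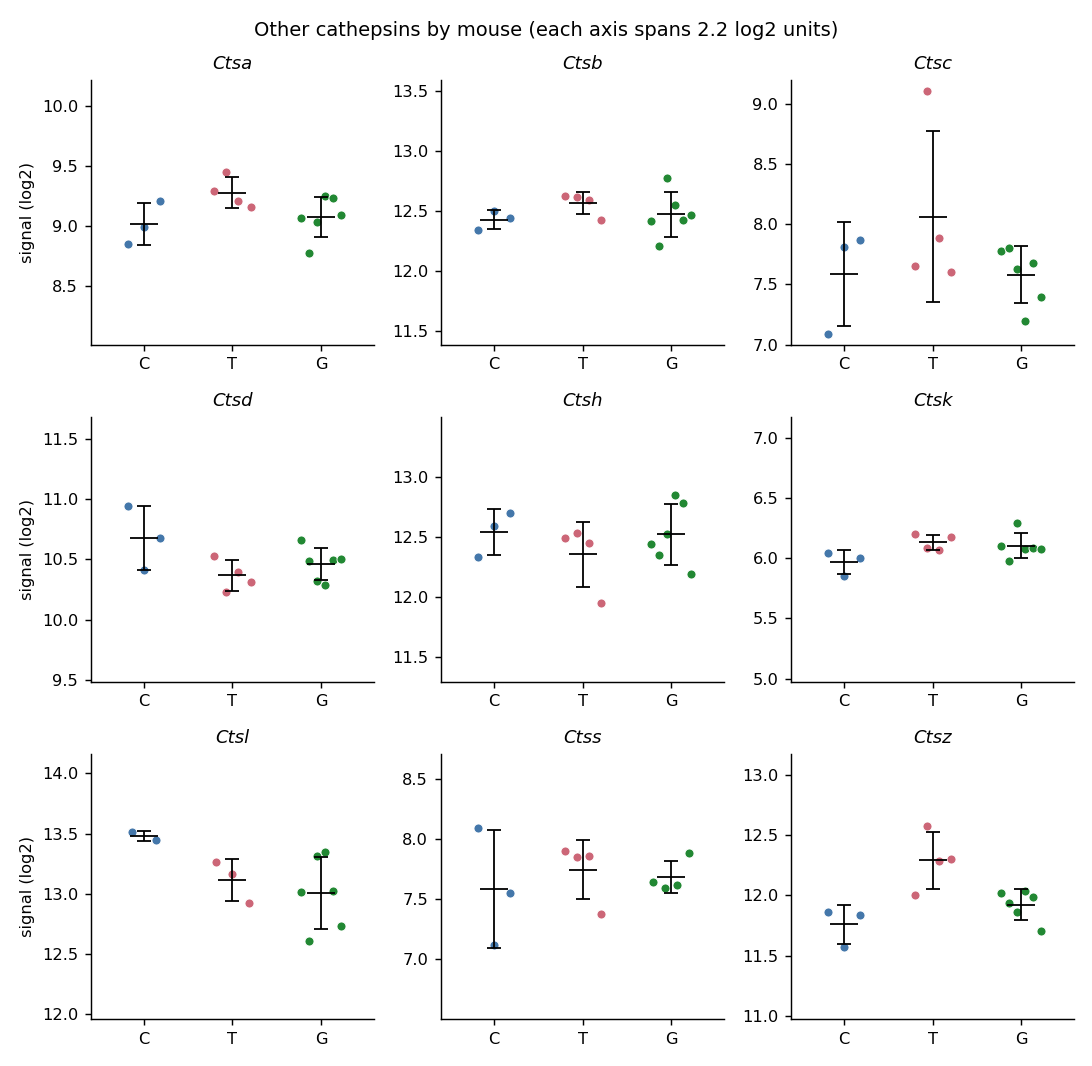
Log2 signal of the 9 relatives in each mouse of groups C (blue, 3 mice), T (red, 4) and G (green, 6), with the mean and SD in black. Every axis spans 2.2 log2 units, so spreads can be compared between panels. For Ctsz the 4 T mice (12.002 to 12.58) lie above the 3 C mice (11.57 to 11.87). Ctsl has values in 11 mice and Ctss in 11, since the other spots were flagged as outliers.

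Ctsz encodes cathepsin Z, also called cathepsin X, a carboxypeptidase made mainly by cells of the immune system. Its only probe lies at chr2:174253228-174253287 (mm9, - strand), and its first 30 bases are shown as those of the single relative that passed the test.
Ctsz probe, first 30 bases: acagtgcttgtggacatgaggaccagagtg

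Ctsz measured 11.87, 11.57 and 11.84 in the C mice and 12.002, 12.58, 12.29 and 12.30 in the T mice. In group G it lay between 11.70 and 12.04, with a median of 11.96. All 4 T mice were above all 3 C mice, while the G mice overlapped both groups. Ctsz rose by 0.53 ± 0.12 (SE, log2) in T over C, with an adjusted p of 0.0442 in limma. This p lay at the threshold. Over 28 other settings the difference ranged from 0.44 to 1.51 and kept its sign, but the adjusted p ranged from 0.00837 to 0.54 and passed in 10. It missed when any C mouse was left out, when T2, T3 or T4-5 was left out, and when any G mouse but G6 was left out, with 0.45 (adjusted p = 0.54) without both C1 and C2. G minus T for Ctsz was -0.37 (95% interval -0.59 to -0.14), with an adjusted p of 0.192 in limma. G minus C was 0.16 (95% interval -0.08 to 0.41). The summed level of the 12 macrophage and Kupffer cell markers with a value in every mouse was between 11.39 and 11.89 in C, 11.84 and 12.28 in T, and 11.50 and 12.10 in G, on the log2 scale. Of the 13 markers measured, 1 passed in T over C, where 2.38% of all genes did. It was Emr1, the macrophage marker F4/80, at 0.31 (adjusted p = 0.0262 in limma), a call lost in 9 of 28 other settings. Emr1 lay near the background in C, where 2 of 4 arrays were well above it. Cd68 of the same list had the lowest difference, -0.25 (adjusted p = 0.101 in limma). It too lay near the background, and was well above it on 1 of 4 C, 0 of 5 T and 3 of 6 G arrays. The part of these cells in the Ctsz difference was not tested.

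Ctsd is read by 2 probes whose differences were not of the same size. The probe at chr7:149561962-149562021 (mm9, - strand), near the 3′ end, had a T minus C of -0.12. The second probe spans a splice junction between chr7:149566847 and 149568505 and had a T minus C of -0.50 ± 0.14 (SE), with an adjusted p over all probes of 0.0732 in limma. Its 60 bases are shown because, after the Ctse and Ctsz probes, it had the widest difference between C and T.
Ctsd probe over a splice junction: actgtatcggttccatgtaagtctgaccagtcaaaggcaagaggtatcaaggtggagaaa

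With both probes averaged, Ctsd measured 10.94, 10.41 and 10.67 in the C mice, and 10.53, 10.23, 10.396 and 10.32 in the T mice. The groups overlapped, as C2 lay under T1. T minus C was -0.31 (95% interval -0.57 to -0.05), with an adjusted p of 0.175 in limma. In group G Ctsd lay between 10.29 and 10.66, with a median of 10.49, and G minus T was 0.09 (95% interval -0.13 to 0.31). Like Ctse, Ctsd had its lowest mean in T, but neither difference passed the test, and scaling each array to its median turned both signs, to 0.59 and -0.02.

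Ctsb, Ctsh and Ctsl encode the cysteine cathepsins with broad activity in liver lysosomes. Ctsb measured 12.34, 12.50 and 12.44 in C and 12.62, 12.62, 12.59 and 12.43 in T, and lay between 12.21 and 12.77 in G (median 12.44). Its 95% intervals were -0.09 to 0.36 for T minus C and -0.28 to 0.10 for G minus T.
Ctsh measured 12.33, 12.59 and 12.70 in C and 12.49, 12.53, 12.45 and 11.95 in T, where T4-5 stood below the other mice. In group G Ctsh lay between 12.19 and 12.84 (median 12.48), and its T minus C was -0.19 (95% interval -0.56 to 0.19).
Ctsl had values in 2 C mice (13.51 and 13.45), in 3 T mice (13.27, 13.16 and 12.92) and in all 6 G mice (12.61 to 13.34, median 13.02), the remaining spots being flagged as outliers. Both C mice were above every mouse of T and G, but both, C1 and C2, rest on arrays of low signal. The differences were -0.36 (95% interval -0.81 to 0.09) for T minus C and -0.47 (95% interval -0.88 to -0.07) for G minus C, with adjusted p-values of 0.358 and 0.298 in limma. When arrays were scaled to their medians these differences of Ctsl became 1.02 and 0.80.

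Ctsc, Ctss and Ctsk are cathepsins of immune cells and, for Ctsk, of osteoclasts and fibroblasts. Ctsc encodes the enzyme that activates the granule proteases of neutrophils and killer cells, and it had the widest spread of the 10 genes, with a residual SD of 0.47. It measured 7.09, 7.81 and 7.87 in C and 7.65, 9.11, 7.89 and 7.60 in T, and lay between 7.20 and 7.80 in G (median 7.65). A single mouse, T2, on slide 1, held the high value, and G minus T was -0.91 on slide 1 and 0.01 on slide 2. Over all mice it was -0.48 (95% interval -1.06 to 0.10).
Ctss, which trims the invariant chain of MHC class II, measured 8.09, 7.12 and 7.55 in C and 7.90, 7.85, 7.86 and 7.38 in T, and 7.65, 7.59, 7.62 and 7.88 in 4 G mice. Its T minus C was 0.16 (95% interval -0.29 to 0.61), and the C mice alone spanned more than that.
Ctsk was well above background on 2 of 15 arrays, T4 and G3. Its values ran from 5.85 to 6.30 over all mice, so its groups differ only near the background and no fold is given.

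Ctsa is read by 2 probes, of which a dim one was well above background on 7 of 15 arrays and the other on all. For the bright probe T minus C was 0.47 and G minus T was -0.45, with adjusted p-values over all probes of 0.153 and 0.286 in limma, whereas for the dim probe they were 0.05 and 0.04. Averaged, Ctsa measured 8.86, 8.99 and 9.21 in C, 9.30, 9.45, 9.21 and 9.16 in T, and between 8.78 and 9.25 in G (median 9.08). C3-4 lay above T4-5, so the groups overlapped. T minus C for the gene was 0.26 (95% interval 0.01 to 0.51), with an adjusted p of 0.222 in limma.

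**Figure D3:**
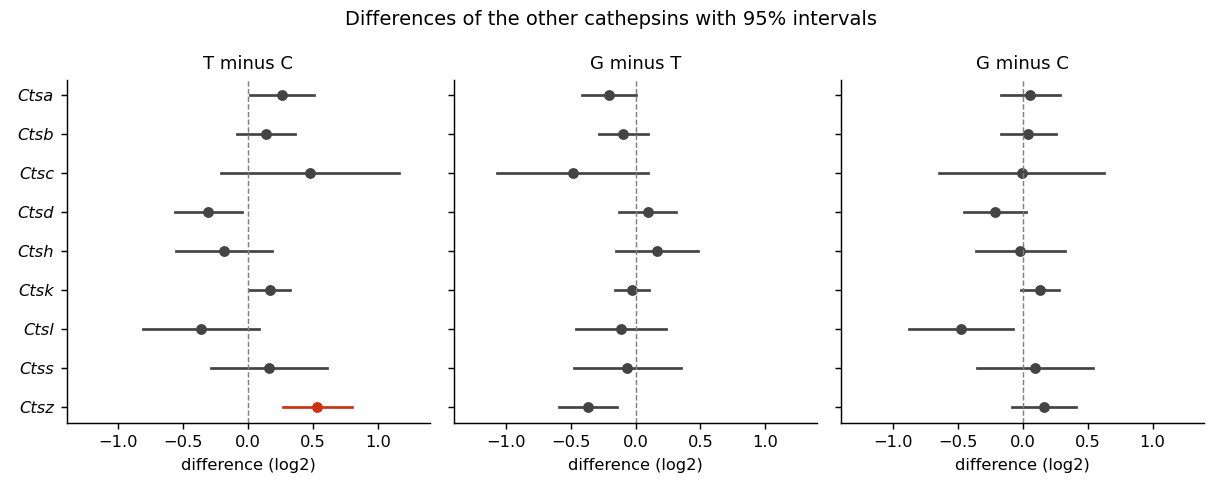
Difference of the 9 relatives between groups (log2, points) with its 95% interval from limma (lines). Ctsz in T minus C, in red, is the one with an adjusted p under 0.05 (0.53, interval 0.27 to 0.80). The intervals of Ctsb are among the narrowest and those of Ctsc the widest. The signs of Ctsd, Ctsh and Ctsl in T minus C turn when arrays are scaled to their medians.

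Within groups, after subtracting the group means, Ctse went with its relatives only loosely. Its r was -0.59 with Ctsz over 13 mice, -0.54 with Ctss over 11 mice, and between -0.41 and 0.25 with the remaining relatives. Among the relatives, Ctsb and Ctsl had the highest r, 0.79 over 11 mice, followed by Ctsa and Ctsh with 0.71 over 13 mice. These are descriptions over few mice that share arrays, slides and normalization. In group T Ctse lay near the floor (SD 0.05), so its r within groups rests mostly on C and G mice. Its highest value, in C2 (8.78), came from the array with the fewest spots well above background.

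The other proteases and inhibitors of these families stayed near the background or did not pass. None of 14 other cathepsins, 9 aspartic proteases and 19 cathepsin inhibitors passed in any comparison with limma, and 1, 3 and 2 of the 42 had an unadjusted p under 0.05 in T minus C, G minus T and G minus C, beside 20.3%, 10.9% and 13.2% of all genes. By the methods' t-test none of them passed either. Of the 14 other cathepsins, 8 were well above background on no array. Ctsf, encoding cathepsin F, was so on all 15, with 7.82 ± 0.12 (SD, n = 3) in C, 7.73 ± 0.13 (SD, n = 4) in T and 7.80 ± 0.13 (SD, n = 6) in G. The highest and lowest differences of the list belonged to Ctso, Ctsg, Cts6, Cts7, Cts8 and Ctsj, which were well above background on no more than 5 arrays each and are differences between values near the background.
Among the aspartic proteases, Bace1, the beta-secretase, measured 7.99 ± 0.07 in C (SD, n = 3), 7.89 ± 0.03 in T (SD, n = 4) and 8.01 ± 0.13 in G (SD, n = 6). Asprv1, a skin protease, was well above background on 2 arrays of group G and on none of C or T, with a highest value of 9.10 and a median of 6.04 in G. Napsa, encoding napsin A, had a value in only 1 T mouse.
Of the inhibitors, Ctla2a, which blocks cysteine cathepsins, measured 7.15 ± 0.34 (SD, n = 3) in C and 8.02 ± 0.32 (SD, n = 4) in T. Its difference of 0.86 had an adjusted p of 0.12 in limma. Cst3, encoding the secreted inhibitor cystatin C, had the lowest difference, -0.51 (95% interval -1.48 to 0.46), and BC100530 the highest G minus T, 0.26, with values near the background.

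The rest of the lysosome and MHC class II loading gave 3 calls among 87 genes in T against C, where 2.38% of all genes passed. Of the 3, 2 were higher and 1 lower, and there was none in G against T or G against C. The median T minus C of the 87 genes was -0.06, against 0.01 over all genes. At an unadjusted p under 0.05 they numbered 24 in T against C (8 higher, 16 lower), 15 in G against T and 19 in G against C, beside 20.3%, 10.9% and 13.2% of all genes in the same order. By list, 2 of 39 hydrolases, 1 of 26 membrane and acidification genes, 0 of 11 sorting genes and 0 of 11 genes of MHC class II loading passed.

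Cd63, a tetraspanin of lysosomes and exosomes, differed most. It averaged 7.99 ± 0.28 (SD, n = 3) in C, 9.98 ± 0.58 (SD, n = 4) in T and 9.08 ± 0.42 (SD, n = 6) in G. The lowest T mouse (9.14) was above the highest C mouse (8.30). Cd63 rose by 1.99 ± 0.31 (SE, log2) in T over C, with an adjusted p of 0.0114 in limma, and by 2.44 and 1.77 within the slides. This call was lost only with both C1 and C2 left out or by the methods' t-test, among 28 other settings.
Lgmn encodes legumain, the asparaginyl endopeptidase that processes several cathepsins to their mature forms. It averaged 9.78 ± 0.12 (SD, n = 3) in C, 10.52 ± 0.35 (SD, n = 4) in T and 10.25 ± 0.20 (SD, n = 6) in G. The rise in T over C was 0.74 ± 0.17 (SE, log2), with an adjusted p of 0.0442 in limma, which was missed in 14 of 28 other settings.
Lipa encodes the acid lipase that breaks down cholesteryl esters in lysosomes. It averaged 10.997 ± 0.16 (SD, n = 3) in C, 10.06 ± 0.38 (SD, n = 4) in T and 10.81 ± 0.23 (SD, n = 6) in G. Lipa fell by 0.93 in T, with an adjusted p of 0.0296 in limma, which was missed in 11 of 28 other settings and turned to a difference of 0.04 when arrays were scaled to their medians.
For MHC class II loading, where both Ctse and Ctss have been placed, H2-Ab1 had the lowest T minus C, -0.88, and the highest G minus T, 0.65, and neither passed.

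**Figure D4:**
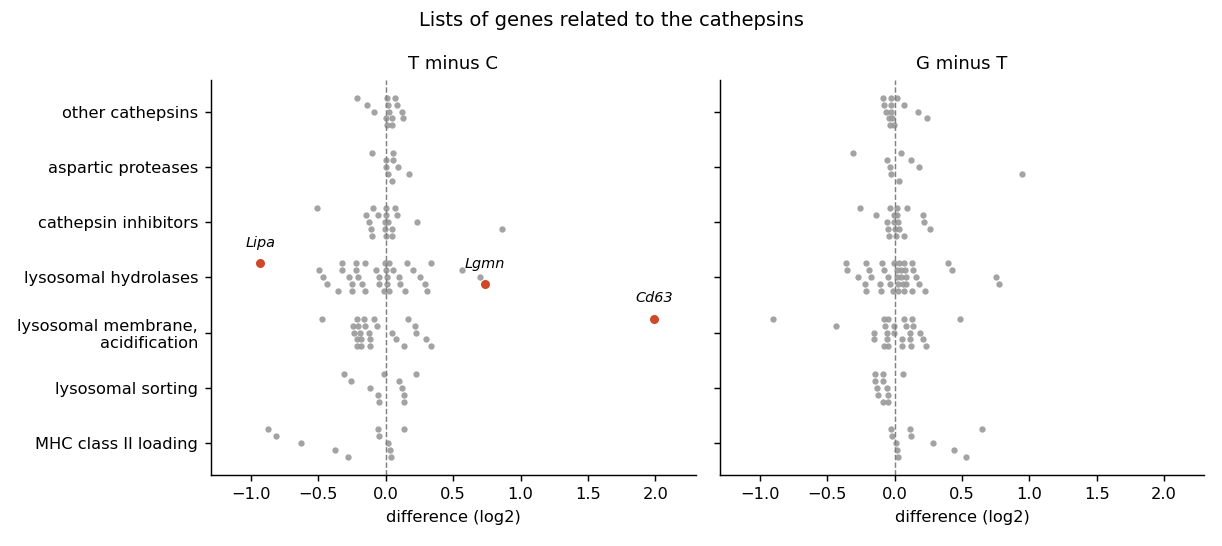
Differences between groups (log2, each point a gene) for 7 lists of genes related to the cathepsins, T minus C on the left and G minus T on the right. Red points, with names, have an adjusted p under 0.05 in limma. Cd63 (1.99), Lgmn (0.74) and Lipa (-0.93, near 0 when arrays are scaled to their medians) are the 3 such genes on the left, and there is none on the right.

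Markers of the cell types that a liver sample could hold were set beside Ctse. Among 108 markers of 12 cell types, 4 passed in T against C, where 2.38% of all genes did. Emr1 and Tff2 (0.35, adjusted p = 0.049) rose, and the hepatocyte genes Ass1 (-0.60, adjusted p = 0.0133) and Ttr (-1.01, adjusted p = 0.00594) fell in limma, but with the signs of Ass1 and Ttr turned when arrays were scaled to their medians. The call was lost in 9 of 28 other settings for Emr1 and in 19 of 27 for Tff2, whose adjusted p reached 0.60. None of the markers passed in G against T or in G against C, and 29 of the 108 had an unadjusted p under 0.05 in T against C, beside 20.3% of all genes. Tff2, a trefoil factor of the stomach, was well above background on 0 of 4 C, 2 of 5 T and 1 of 6 G arrays. Summed levels add the linear signals of the markers with a value in every mouse, so the brightest genes weigh most. The summed level of the stomach list was 9.34 to 9.38 in C, 9.38 to 9.44 in T and 9.38 to 9.44 in G. None of its markers was well above background on every array, so this sum is mostly background. The acid pump gene Atp4a, the gastrokine Gkn1 and the intrinsic factor gene Gif were well above background on no array. Erythroid markers summed to 11.84 to 13.31 in C, 13.67 to 14.22 in T and 12.45 to 15.06 in G. Hepatocyte markers summed to 20.08 to 20.18 in C, 19.75 to 20.07 in T and 19.89 to 20.04 in G, where the G mice lay within the range of the T mice. Of the 12 hepatocyte markers, 2 had an unadjusted p under 0.05 with a higher mean in T than in C and 5 with a lower one, and the highest difference was that of Apoa1, an apolipoprotein gene, at 0.54 (adjusted p = 0.0686 in limma). MHC class II genes summed to 10.87 to 12.12 in C, 10.401 to 11.19 in T and 10.85 to 11.44 in G, with overlap. The part of hepatocytes, red cells or immune cells in the Ctse values was not tested.

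The genes around Ctse on chromosome 1 differed far less between groups than Ctse. Within 500 kb of the Ctse probe the array holds 15 other genes, 9 of them well above background on all 15 arrays. Their T minus C ran from -0.36 to 0.24 and their G minus T from -0.33 to 0.24. The nearest on either side, Avpr1b at 63.5 kb and 5430435G22Rik at 38.0 kb from the probe, were well above background on 0 and 4 of 15 arrays. Pm20d1, an enzyme that makes N-acyl amino acids, at 142 kb, was the only 1 of the 15 to pass in T against C, where 2.38% of all genes did. It measured 7.93 ± 0.14 (SD, n = 3) in C, 7.56 ± 0.05 (SD, n = 4) in T and 7.81 ± 0.10 (SD, n = 6) in G, a difference of -0.36 with an adjusted p of 0.0301 in limma that turned to 0.11 when arrays were scaled to their medians. No neighbour passed in G against T or G against C, where 0.127% and 0.427% of all genes did.

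Over all 13 mice, 10534 genes were well above background on at least 8 arrays and could be set against Ctse. Of these, 9 had a Pearson r above 0.9 with Ctse and 15 an r below -0.9. This is a description, since the mice fall into the groups for which Ctse was chosen. The 5 highest were Pde4d (0.94), Pla2g6 (0.93), Pltp (0.92), Ttr (0.92) and Rdh16 (0.92). Pde4d averaged 6.42 in C, 6.11 in T and 6.34 in G, near the background. It was well above background on 4 of 4 C, 1 of 5 T and 6 of 6 G arrays, so its T values, like those of Ctse, lay near the floor. Pltp, the phospholipid transfer protein of plasma, averaged 10.398 ± 0.09 (SD, n = 3) in C, 7.54 ± 0.38 (SD, n = 4) in T and 8.99 ± 0.63 (SD, n = 6) in G. Rdh16, a retinol dehydrogenase of hepatocytes, averaged 9.74 ± 0.26 (SD, n = 3), 7.33 ± 0.45 (SD, n = 4) and 8.62 ± 0.46 (SD, n = 6) in the same order. Both fell from C to T and lay between in G, as Ctse did, but unlike Ctse they were well above background on all T arrays.
The 5 lowest were LOC100042049 (-0.96), Dnaic1 (-0.95), LOC100505330 (-0.94), Vamp7 (-0.93) and Aph1b (-0.93). Aph1b was well above background on 1 of 4 C, 5 of 5 T and 3 of 6 G arrays. Dnaic1, which encodes an axonemal dynein chain, averaged 6.78 ± 0.31 (SD, n = 3) in C, 10.69 ± 0.46 (SD, n = 4) in T and 7.58 ± 0.48 (SD, n = 6) in G, and Vamp7 encodes a SNARE of late endosomes and lysosomes. With the group means subtracted, r fell to 0.68 for Pde4d, 0.36 for Pla2g6 and -0.33 for Dnaic1, and stayed at -0.86 for LOC100042049. The T mice, near the floor for Ctse, add little to these values within groups. Of the relatives, Ctsz had the lowest r with Ctse, -0.87, and Ctsd the highest, 0.42.

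**Figure D5:**
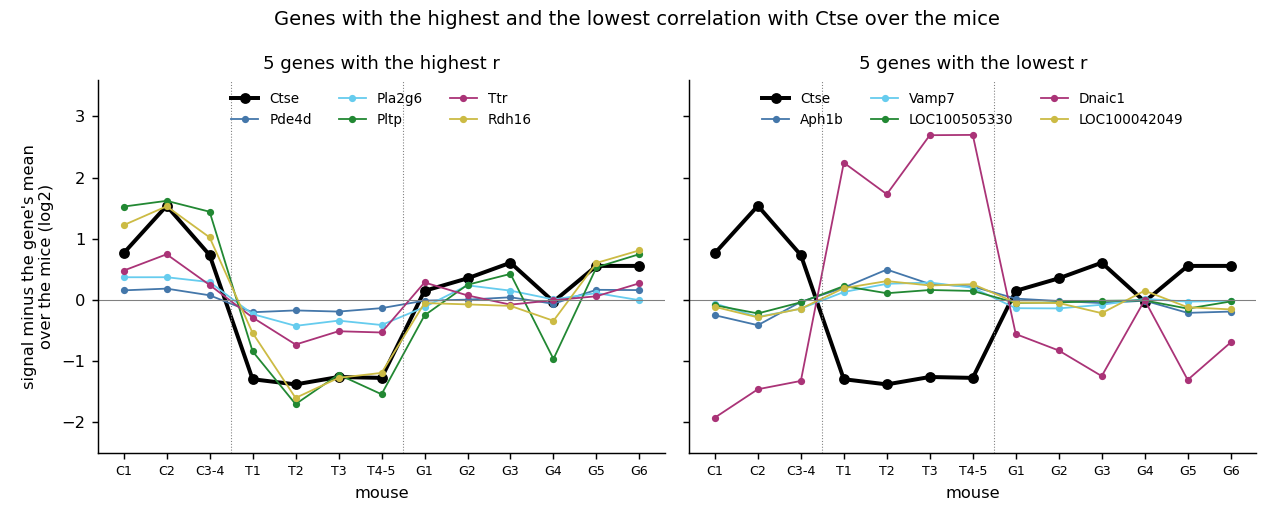
Log2 signal of Ctse (black) and of the 5 genes with the highest r (left) and the 5 with the lowest r (right) in each of the 13 mice, as the distance from the gene's own mean. Dotted lines part groups C, T and G. Pltp and Rdh16 span about as much as Ctse, Dnaic1 spans more, and Pde4d, Vamp7, Aph1b and both LOC genes differ far less between groups.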

How the data were processed

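The authors deposited the scanner output of 15 single-colour Agilent arrays, with spot and background intensity from Feature Extraction (version 10.7 per the file headers), and a table of log2 values after normexp and quantile normalization, used here as an alternative. The software's background-subtracted intensity, also deposited, served another. From the deposited intensity, mean signals were background-corrected by normexp (offset 50), logged, and quantile normalized across the 59305 non-control spots, after outlier-flagged spots were set to missing. No spot was saturated. Spots of a probe were averaged, and centred probes were averaged per gene symbol (22032 symbols, 29522 probes). No filter on dim genes was applied. All 10 cathepsins matched RefSeq symbols. Groups were compared with limma 3.58.1 in R 4.3.3 (a mean per group, eBayes, Benjamini-Hochberg adjustment over all genes, threshold 0.05), tested on simulated data. Positions are mm9. The number of mice limits precision. Cell markers, related lists and the named genes followed fixed rules. These took the members, called or extreme genes of related lists, called markers and neighbours, and the 5 highest and 5 lowest correlations with Ctse. Gas1 was named in addition as the delivered gene. The members and lists were chosen with earlier results of these data known.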

Additional observations from a re-analysis of the deposited data

Results flagged for a closer look

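Ctsh and Ctss each had a mouse of group T far from the other 3. Ctsh measured 11.95 in T4-5, against 12.45 in the nearest T mouse. Ctss measured 7.38 in T4-5, against 7.85 in the nearest T mouse. In both, the gap to the nearest mouse was too large a share of the group's range for Dixon's criterion at 95%. Of 19 groups tested, these 2 were flagged, and chance flags about 1 in 20. T4-5 is the mean of 2 arrays that carry the same RNA code.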

How the results depend on the processing

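The count of relatives called in T against C was 1 in the report. It was 0 with cyclic loess, the processed signal scaled to the 75th percentile, a normexp offset of 16 or the replicate block. Trend and robust eBayes and the t-test of each gene alone also gave 0, and the count was 0 to 1 with a mouse left out. With C1 and C2 both left out, a choice made after seeing the data that leaves group C with 1 mouse assumed to vary like the rest, it was 0. The counts of 0 relatives in G against T and G against C held under all 28 alternatives.

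Ctse kept its direction in T minus C and G minus T under every setting. T minus C was -1.70 with median scaling, -6.24 with the 75th percentile, -3.30 with an offset of 16 and -2.04 without C1 and C2, and G minus T was 5.37 with the 75th percentile and 2.55 with an offset of 16. Its G minus C turned to 0.027 with median scaling. It was -0.38 with cyclic loess, -0.87 with the 75th percentile and -0.37 without C1 and C2.

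Median scaling turned the sign in T minus C of Ctsd (0.59), Ctsh (0.79), Ctsl (1.02), Lipa (0.038), Ass1 (0.49), Ttr (0.18), Pla2g6 (0.18) and Pm20d1 (0.11), in G minus T of Ctsd (-0.017), and in G minus C of Ctsc (0.49), Ctsd (0.57), Ctsh (0.80) and Ctsl (0.80). The 75th percentile turned Ctsk in T minus C (-0.11), Ctsd (-0.038), Ctsh (-0.033) and Ctsk (0.63) in G minus T, and Ctsb (-0.037) and Ctsc (0.034) in G minus C. Ctss in G minus T became 0.012 with 15 arrays as separate mice and 0.0086 with outlier spots kept. In G minus C, Ctsb became -0.0045 with cyclic loess, Ctsh 0.035 with the authors' table, and Ctsa -0.13 without C1 and C2. None of these turned values passed the test. Those from median scaling rest on the dim median spot of each array, as given above. In T minus C, Ctsd, Ctsh and Ctsl kept their signs with cyclic loess and the 75th percentile. With a mouse left out, Ctss ranged from -0.075 to 0.41 in T minus C, and in G minus C Ctsa ranged from -0.023 to 0.15, Ctsb from -0.017 to 0.095, Ctsc from -0.26 to 0.13, Ctsh from -0.12 to 0.060 and Ctss from -0.14 to 0.35.

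Over 10 pairs of same-numbered mice, the r of their deviations ran from -0.31 to 0.25, with 4 above 0.1. Groups this small cannot settle whether the numbers pair the samples. With the number as a replicate block, 268 genes passed in T against C in place of 525, 0 hydrolases passed, and in G minus C Ctsc became 0.16 and Ctsh 0.016.

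Of the lists in T against C, the hydrolases (2 called) gave 6 with 15 arrays, 4 with median scaling, 0 with cyclic loess, the 75th percentile, the t-test or without C1 and C2, and 0 to 2 with a mouse left out. The membrane genes (1 called) gave 2 with 15 arrays, the authors' table, a filter on dim genes, outlier spots kept, the brightest probe or the slide as a term, 7 with median scaling, 0 with the t-test or without C1 and C2, and 1 to 2 with a mouse left out. The inhibitors (0 called) gave 1 with 15 arrays, 2 with median scaling and 0 to 1 with a mouse left out, and the sorting and MHC class II lists gave 1 each with 15 arrays. In G against T, hydrolases and membrane genes gave 1 each with 15 arrays, membrane genes 1 with cyclic loess or the filter, and both 0 to 1 with a mouse left out. In G against C, 15 arrays gave 1 hydrolase, 2 membrane genes and 1 sorting gene, and membrane genes gave 0 to 1 with a mouse left out. The cause was not tested.

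Over all genes, T against C gave 1947 calls with 15 arrays, 2832 with median scaling (2818 higher and 14 lower, against 268 and 257 in the report), 186 with cyclic loess, 57 with the 75th percentile, 799 with the slide as a term, 0 with the t-test, 6 without C1 and C2, and 89 to 761 with a mouse left out. Median scaling moved the median T minus C of all genes to 0.12 and the 75th percentile to -0.40. G against T gave 3 to 263 calls (28 in the report) and G against C 0 to 342 (94 in the report) over the alternatives. Signal over background limits Ctse in group T and Ctsk in every group to bounds.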
